A study of Mus musculus with 24 samples.

Results

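Heart muscle genes were followed in whole mouse lung through 10 that serve contraction, calcium handling and hormone signalling: Myh6, Myl4, Myl7, Actc1, Tnnt2, Tnni3, Ldb3, Sln, Hrc and Nppa. These 10 genes, of 24970 unique gene symbols in the tables, were chosen by name from the difference between knockout and control whole lungs, so that difference is given here as a description, and no p-value is given for it. Poly(A) RNA sequencing was done on 24 libraries. Whole lungs were taken 6 days after tamoxifen (3 control and 3 knockout mice). Other whole lungs were taken after 6 months of booster tamoxifen (4 control and 4 knockout mice). Alveolar type 2 (AT2) cells were sorted 6 days after tamoxifen (3 control and 3 knockout libraries, each a pool of 3 mice). Organoids were grown for 14 days in AMM medium from AT2 cells taken 6 days after tamoxifen (2 mice of each genotype). Controls had the genotype Sftpc-CreER/+; R26-tdT/+, and knockouts had let7afd-/-;Sftpc-CreER/+; R26-tdT/+, so both carried the Cre driver and the tdTomato reporter, and all mice received tamoxifen. The Cre was driven by the promoter of Sftpc, a surfactant protein gene of AT2 cells, and the deletion of the microRNAs let-7a, let-7f and let-7d was therefore aimed at AT2 cells, not at muscle. The labels state no ages for the mice. Values are TPM, a level scaled per transcript length and to a fixed sum in each library, so levels can be set against each other between genes.

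In heart muscle, thick filaments of myosin pull on thin filaments of actin, and the troponin complex on the thin filament turns contraction on when calcium is released from the sarcoplasmic reticulum. Atrial muscle uses light chains and peptides of its own, among them Myl4, Myl7, Sln and Nppa, while ventricular muscle uses Myl2 and Myl3. In mice, heart muscle of atrial type is not restricted to the heart: it runs as a sleeve along the pulmonary veins into the lung, and the atria adjoin the root of the lung. In a bulk library, fewer cells of a type and less RNA per cell cannot be told apart.

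The deleted microRNAs act through a seed, bases 2 to 8, that pairs with sites in 3′ untranslated regions (UTRs). Their mature sequences (RefSeq, GRCm38.p6) are shown with the seed in capitals because the same seed was used to look for sites in the heart genes.
mmu-let-7d-5p, chr13:48536078-48536099, minus strand: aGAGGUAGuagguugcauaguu
mmu-let-7f-5p, chr13:48537889-48537910, minus strand: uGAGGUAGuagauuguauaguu
mmu-let-7a-5p, chr13:48538239-48538260, minus strand: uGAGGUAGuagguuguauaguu
All 3 have the seed GAGGUAG. Its match of 8 letters, CTACCTCA, was in the 3′ UTR of 0 of the 9 heart genes with an annotated 3′ UTR of at least 50 bases, and the shorter matches of 7 letters, CTACCTC or TACCTCA, were in 0 of the 9 as well. Among 19877 genes searched the same way, 3.68% held the first and 16.8% held a shorter match. The UTRs searched ran from 60 bases (Myh6) to 2857 bases (Ldb3), and Myl7 had none long enough. The absence of these letters says nothing about other kinds of site.

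Of the 10 genes, 9 have a promoter window in the RefSeq table (GRCm38.p6), 250 bases before and 50 bases after an annotated start; Sln has no entry. The 4 promoters below are shown because they hold motifs that heart and muscle factors are known to bind; the 250 bases before the start are printed 5′ to 3′, and capitals mark a GATA motif (TGATAA or TGATAG or AGATAA or AGATAG), an NKX2-5 motif (TNAAGTG) or a CArG box, which serum response factor binds.
Actc1, chr2:114052876-114053125, minus strand: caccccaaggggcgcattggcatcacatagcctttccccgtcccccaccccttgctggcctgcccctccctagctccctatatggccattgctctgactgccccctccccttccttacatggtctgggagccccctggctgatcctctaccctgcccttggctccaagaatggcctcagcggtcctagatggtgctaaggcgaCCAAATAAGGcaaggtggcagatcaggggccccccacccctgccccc
Myl7, chr11:5898783-5899032, minus strand: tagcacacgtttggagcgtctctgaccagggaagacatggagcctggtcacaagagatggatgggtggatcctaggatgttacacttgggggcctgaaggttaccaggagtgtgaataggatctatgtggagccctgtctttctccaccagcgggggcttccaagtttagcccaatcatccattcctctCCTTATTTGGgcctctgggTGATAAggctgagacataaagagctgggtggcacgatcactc
Ldb3, chr14:34588682-34588931, minus strand: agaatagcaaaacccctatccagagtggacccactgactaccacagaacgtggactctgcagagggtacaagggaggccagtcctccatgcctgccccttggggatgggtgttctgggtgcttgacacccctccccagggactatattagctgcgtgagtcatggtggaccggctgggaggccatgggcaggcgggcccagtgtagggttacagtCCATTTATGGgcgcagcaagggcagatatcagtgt
Nppa, chr4:148000472-148000721, plus strand: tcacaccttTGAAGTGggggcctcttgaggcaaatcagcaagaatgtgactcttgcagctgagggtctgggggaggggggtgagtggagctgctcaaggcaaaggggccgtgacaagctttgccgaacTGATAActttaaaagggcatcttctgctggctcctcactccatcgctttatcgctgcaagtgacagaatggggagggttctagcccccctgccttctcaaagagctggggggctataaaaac
For the 9, a gene was counted when any of its windows held the motif, and Ldb3 and Tnnt2 have more than 1 window. The percentages count windows, so the units differ. Searched on both strands of the 300-base windows, the CArG box was in the windows of 3 of 9 genes (Actc1, Ldb3, Myl7) and in 1.63% of all 32851 windows. GATA motifs were in 6 of 9 (Hrc, Ldb3, Myh6, Myl7, Nppa, Tnnt2) and in 29.8% of all windows. The NKX2-5 motif was in 1 of 9 (Nppa) and in 11.5% of all windows, and the MEF2 motif was in 0 of 9 and in 3.19% of all windows. The MCAT motif, CATTCC, was in 3 of 9 (Myh6, Myl7, Tnnt2) and in 14.7% of all windows. In the Myl7 promoter the CArG box and the GATA motif lay at −61 to −52 and −42 to −37, counted from the start. Such a match is a description of the sequence and does not show that a factor binds there.

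The whole-lung libraries held the RNA of lung: the AT2 gene Sftpc ranged from 10150 to 33720 TPM, and Scgb1a1, the secretory protein of club cells, took 14.4% to 16.6% of all TPM in the 6-day controls and 6.84% to 8.38% in the 6-day knockouts (16.7% to 21.0% and 9.35% to 10.8% at 6 months). Haemoglobin transcripts took 12.6% of TPM in knockout 3 at 6 days, against 1.4% to 6.54% in the other 5 libraries of that age. Their part in the results was not tested. The let-7 precursors were listed at 0 in all 24 libraries, which do not measure mature microRNAs, so the deletion itself could not be checked. TPM carry no read counts, and the depth of the libraries is unknown.

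Summed over the 10 genes, heart muscle transcripts made up 1344 ± 334 TPM (SD, n = 3) of control lung at 6 days and 246 ± 85.5 TPM (SD, n = 3) of knockout lung. By library, the sums were 1728, 1186 and 1117 TPM in the controls and 148.8, 281 and 309 TPM in the knockouts. At 6 months the sums were 1334, 604, 849 and 901 TPM in the controls and 455, 307, 373 and 348 TPM in the knockouts, means of 922 ± 304 and 370.5 ± 62.3 TPM (SD, n = 4 each). The groups did not overlap at either time, and the control mean was 5.46 times the knockout mean at 6 days and 2.49 times at 6 months. The 2 ages were normalized in separate tables, so a level at one age is not tested against the other.

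**Figure D1:**
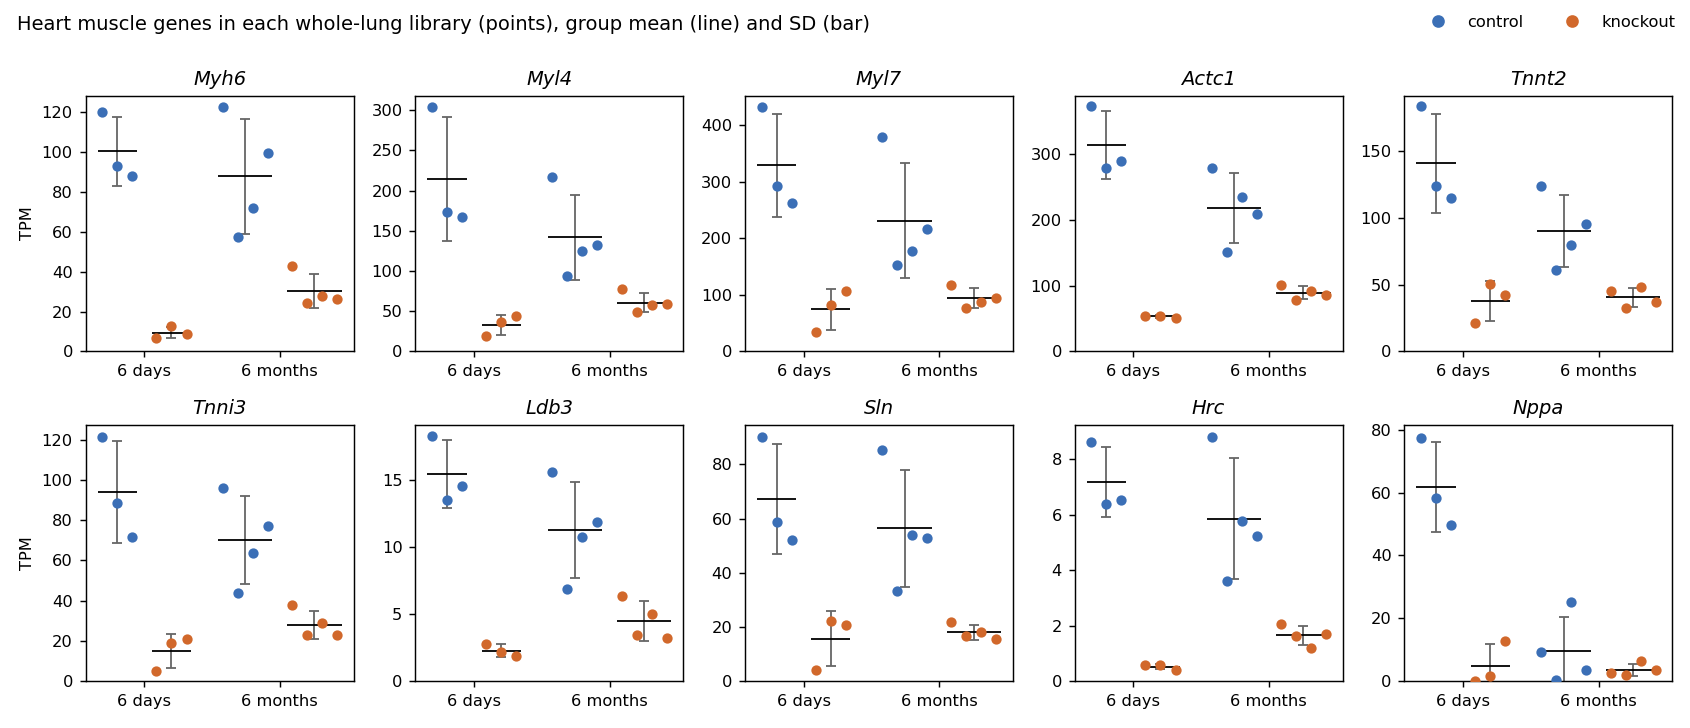
TPM (y axis, from 0) of each of the 10 heart muscle genes in every whole-lung library (points), with the group mean (line) and SD (bar, cut off at 0 where it would pass below), at 6 days (3 control, 3 knockout) and 6 months (4 control, 4 knockout). For all genes but Nppa at 6 months, every knockout library lies below every control library.

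The thick filament genes are the motor and its light chains. Myh6, the alpha myosin heavy chain of the adult mouse heart and of atrial muscle, was at 120.1, 93.2 and 87.9 TPM in the 6-day controls and at 6.98, 12.7 and 8.80 TPM in the 6-day knockouts. The lowest control was thus far above the highest knockout, and the means were 10.6-fold apart. At 6 months Myh6 was at 122.5, 57.2, 71.9 and 99.4 TPM in the controls and at 43.1, 24.6, 27.6 and 26.1 TPM in the knockouts, 2.89-fold apart. Knockout 1 stood above the other 3 knockouts and still below the lowest control.

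Myl7, the atrial regulatory light chain, had the highest mean of the 10 in control lung at both ages, and was at 432, 291 and 263 TPM at 6 days; Actc1 stood above it in control 3 at each age. The 6-day knockouts had 35.0, 82.0 and 106.7 TPM, 4.41-fold less, with knockout 1 the lowest. At 6 months the controls had 378, 152.7, 178 and 215.5 TPM and the knockouts 117.5, 76.3, 87.8 and 94.2 TPM, 2.46-fold less. Myl4, the atrial essential light chain, ran beside it at 304, 173 and 168 TPM against 19.5, 36.3 and 43.7 TPM at 6 days. The ratio of Myl7 to Myl4 was 1.60 ± 0.131 in controls and 1.55 ± 0.0429 in knockouts at 6 months (SD, n = 4 each). At 6 days it was 1.56 ± 0.13 in controls and 2.17 ± 0.331 in knockouts (SD, n = 3 each), with no overlap.

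The thin filament was represented by cardiac actin and 2 troponins. Actc1, cardiac alpha actin, was at 372, 278 and 289 TPM in the 6-day controls and at 53.6, 54.5 and 51.3 TPM in the knockouts, a 5.90-fold difference. Relative to their mean, the 3 knockout values lay closer together than for any other of the 10 genes. At 6 months Actc1 was at 278, 151, 235 and 208 TPM in the controls and at 101.5, 78.6, 92.0 and 85.4 TPM in the knockouts, 2.44-fold lower. Tnnt2, the cardiac troponin that holds the complex on tropomyosin, was at 183, 124 and 115 TPM against 21.4, 50.3 and 42.0 TPM at 6 days, the smallest difference of the 10 (3.71-fold). Tnni3, the inhibitory cardiac troponin, was at 121.5, 88.7 and 71.5 TPM against 5.01, 18.7 and 20.7 TPM. The groups did not overlap for either troponin, and at 6 months the means were 2.22-fold (Tnnt2) and 2.51-fold (Tnni3) apart, again with no overlap.

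Ldb3 encodes a protein of the Z disc, which anchors the thin filaments. It was at 18.2, 13.4 and 14.5 TPM in the 6-day controls and at 2.78, 2.12 and 1.87 TPM in the knockouts. At 6 months it ranged from 6.83 to 15.5 TPM in the controls and from 3.17 to 6.31 TPM in the knockouts, so that the lowest control and the highest knockout were close but did not overlap.

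Calcium handling was represented by Sln and Hrc. Sarcolipin (Sln), a small peptide of atrial and skeletal muscle that inhibits the calcium pump, was at 90.2, 58.7 and 52.2 TPM in the 6-day controls and at 4.00, 22.3 and 20.6 TPM in the knockouts. At 6 months Sln was 3.13-fold lower in the knockouts (15.4 to 21.9 TPM) than in the controls (33.2 to 85.4 TPM). Hrc, a calcium-binding protein inside the sarcoplasmic reticulum, was the least abundant of the 10. It was at 8.64, 6.38 and 6.54 TPM in the 6-day controls and at 0.561, 0.559 and 0.408 TPM in the knockouts, 14.1-fold lower. At 6 months the difference in Hrc was 3.56-fold, the largest ratio of mean TPM among the 10 at that age.

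Nppa, which encodes the atrial natriuretic peptide, a hormone that atrial muscle releases on stretch, behaved unlike the others. At 6 days it was at 77.5, 58.4 and 49.6 TPM in the controls, while the knockouts were listed at 0, 1.49 and 12.9 TPM. The groups did not overlap, but relative to their mean the knockouts spread more widely than for any other of the genes. At 6 months the controls were at 9.34, 0.289, 24.99 and 3.46 TPM and the knockouts at 2.48, 1.80, 6.28 and 3.48 TPM, so the groups overlapped and the lowest value of all was a control. The log2 difference of −0.57 at 6 months turned to 0.11 without control 3 and became −1.33 without control 2. Control 3, the highest for Nppa, was not the highest 6-month control for any other of the 10 genes.

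**Figure D2:**
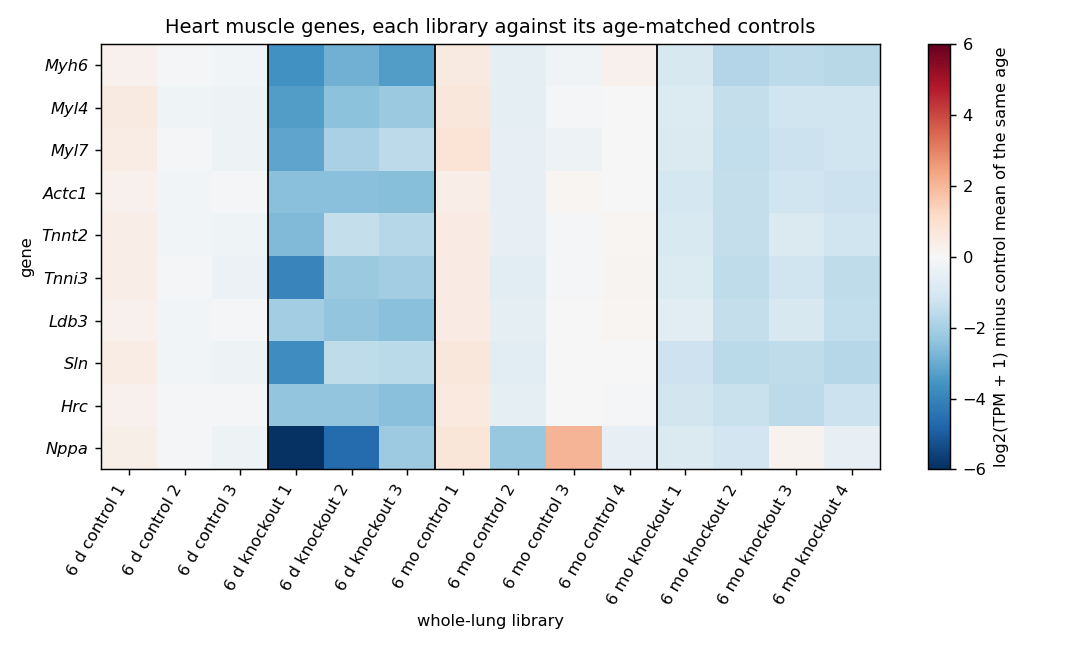
Colour gives log2(TPM + 1) of each gene (rows) in each whole-lung library (columns) minus the mean of the controls of the same age; black lines separate the groups. The 6-day knockouts are the bluest, the 6-month knockouts are paler, and Nppa at 6 months is red in control 3 and blue in control 2.

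On the scale of log2(TPM + 1), on which the changes of low genes are understated, the knockout minus control difference ran from −4.25 (Nppa) to −1.92 (Tnnt2) at 6 days with a median of −2.48, against a median of −0.14 over all 14154 genes tested. At 6 months it ran from −1.53 (Sln) to −0.57 (Nppa) with a median of −1.23, against −0.0048 over all 14177 genes tested. By limma with Benjamini-Hochberg adjustment over all genes, 10 of 10 were lower at 6 days, where 3.79% of all genes tested were called lower and 3.16% higher. At 6 months 9 of 10 were lower, where 13.9% were called lower and 15.9% higher. Every knockout lay below every control for 10 of 10 genes at 6 days, against 23.7% of all genes, and for 9 of 10 at 6 months, against 14.2%. Because the genes were chosen from these differences, the calls are no independent test of them and nothing is read from the counts or shares. The count of 10 became 5 without control 1 or without control 3, while all 10 differences stayed negative. Scaling the 6-day libraries by median ratios moved the median of all genes from −0.14 to 0.00198, and the 10 genes then lay between −4.05 and −1.76.

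In the 6-day controls the order of the mean levels ran Myl7, Actc1, Myl4, Tnnt2, Myh6, Tnni3, Sln, Nppa, Ldb3 and Hrc, and the ranges of neighbours overlapped except between Nppa and Ldb3 and between Ldb3 and Hrc. In the 6-day knockouts Myh6, at a mean of 9.48 TPM, stood below Sln (15.6 TPM) and Tnni3 (14.8 TPM), both of which it exceeded in the controls. As a share of the summed 10 genes, at 6 months Myl7 took 24.6% in controls and 25.3% in knockouts, Actc1 24.2% and 24.3%, Myl4 15.3% and 16.3%, and Tnni3 7.62% and 7.48%. Sln took 6.03 ± 0.431% and 4.87 ± 0.394%, and Hrc 0.629 ± 0.0485% and 0.448 ± 0.0909% (SD, n = 4 each), both with no overlap. At 6 days the share of Myh6 was 7.56 ± 0.527% in controls and 4.02 ± 1.01% in knockouts (SD, n = 3 each), with no overlap. That of Tnnt2 was 10.5 ± 0.15% and 15.3 ± 2.30%, also with no overlap. The 6-day shares of Myl4, Hrc and Nppa did not overlap either. The ratio of Myl7 to Myh6 was 3.24 ± 0.318 in the 6-day controls and 7.87 ± 3.76 in the knockouts, and 2.60 ± 0.384 and 3.16 ± 0.363 at 6 months. These ratios of genes chosen from the same contrast were not tested.

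The genes also varied together between animals of one genotype. Control 1 was the highest of the 6-day controls for 10 of 10 genes, and at 6 months control 1 was the highest for 9 and control 2 the lowest for 10. Among the 6-day knockouts, knockout 1 was the lowest for 7 (Myh6, Myl4, Myl7, Tnnt2, Tnni3, Sln, Nppa) but the highest for Ldb3 and Hrc. Among the 6-month knockouts, knockout 1 was the highest for 8. Across the 14 lungs, the correlation between deviations from the group mean on the log2 scale ran from 0.238 to 0.973 over the 45 pairs of genes, with a median of 0.663. It is a description of 14 libraries in 4 groups, in which all genes share the library. The 9 pairs with Nppa ran from 0.238 to 0.634, and the other 36 pairs had a median of 0.734.

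Marker genes of other cells were measured in the same libraries. Summed over 11 smooth muscle genes, which serve airways and vessels, the 6-day controls had 988, 1025 and 1279 TPM and the knockouts 1124, 854 and 710.3 TPM. Control 1, highest in the sum of the chosen heart muscle genes, was thus the lowest control in smooth muscle genes. Knockout 1, lowest in that heart muscle sum, was the highest knockout in smooth muscle genes. This order of the knockouts depended on the heart genes summed. Over the other heart genes described below, the 6-day knockouts had 1301, 1336 and 1056 TPM. Knockout 3 was then the lowest in both heart and smooth muscle genes. Of the lists that make up those genes, muscle energy genes alone had knockout 1 lowest (517.5, 580.7 and 539.4 TPM). By limma, 3 of 11 smooth muscle genes were lower at 6 days and 11 of 11 at 6 months. Of all genes tested, 3.79% were called lower at 6 days and 13.9% at 6 months. The smooth muscle sum at 6 months was 979 ± 141 TPM in controls and 550.1 ± 14.3 TPM in knockouts (SD, n = 4 each). The smooth muscle actin Acta2 had a log2 difference of −0.13 at 6 days (adjusted p = 0.758, limma) and fell by 0.92 at 6 months (adjusted p = 5.4e-05).

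The counts of the next lists stand beside the shares of all genes tested. These were 3.79% lower and 3.16% higher at 6 days, and 13.9% lower and 15.9% higher at 6 months. Fat cell genes had a median log2 difference of −3.32 at 6 days. All 6 tested of 8 were lower by limma, and the sum over the 8 was 337, 116.6 and 347 TPM in the controls and 12.5, 10.6 and 29.9 TPM in the knockouts. Among them were Cfd, the protease adipsin, which fell by 4.14, and Adipoq, the hormone adiponectin, which fell by 3.68 on the log2 scale. At 6 months 2 of 6 were lower (Cidec and Plin4, of the lipid droplet, the latter named after its values were seen), and the summed ranges overlapped, 37.9 to 107.6 TPM and 9.13 to 48.6 TPM. Of 19 skeletal muscle genes, 3 of 8 tested were lower and 0 higher at 6 days, and 1 of 5 was lower and 1 higher at 6 months. The one that rose was Tnni2, a fast skeletal troponin, from 2.25 to 5.21 TPM (log2 difference 0.92). Myod1, Myog, Myf6, Myh1, Myh2 and Myh4, named after their values were seen, stayed below 0.1 TPM in every lung, and the sum over 19 genes was at most 41.3 TPM. Of them Myl1, a light chain of fast skeletal and embryonic muscle, was highest in 6-day controls (14.2 to 18.9 TPM) and lower in knockouts (1.71 to 3.47 TPM). The 8 cartilage genes summed to at most 3.41 TPM, and 4 of 5 thymus genes (Rag1, Rag2, Ptcra and Dntt) stayed below 1 TPM. Endocardial genes, of the inner lining of the heart, summed to 116.6 to 161 TPM in the 6-day controls and 31.0 to 73.3 TPM in the knockouts, and 2 of 3 were lower at each age. Of 6 mesothelial genes, which mark the lining of the lung, 1 rose (Msln, log2 difference 1.34) and 0 fell at 6 days, and 5 fell and 0 rose at 6 months. The part of these cells in the heart gene differences was not tested.

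**Figure D3:**
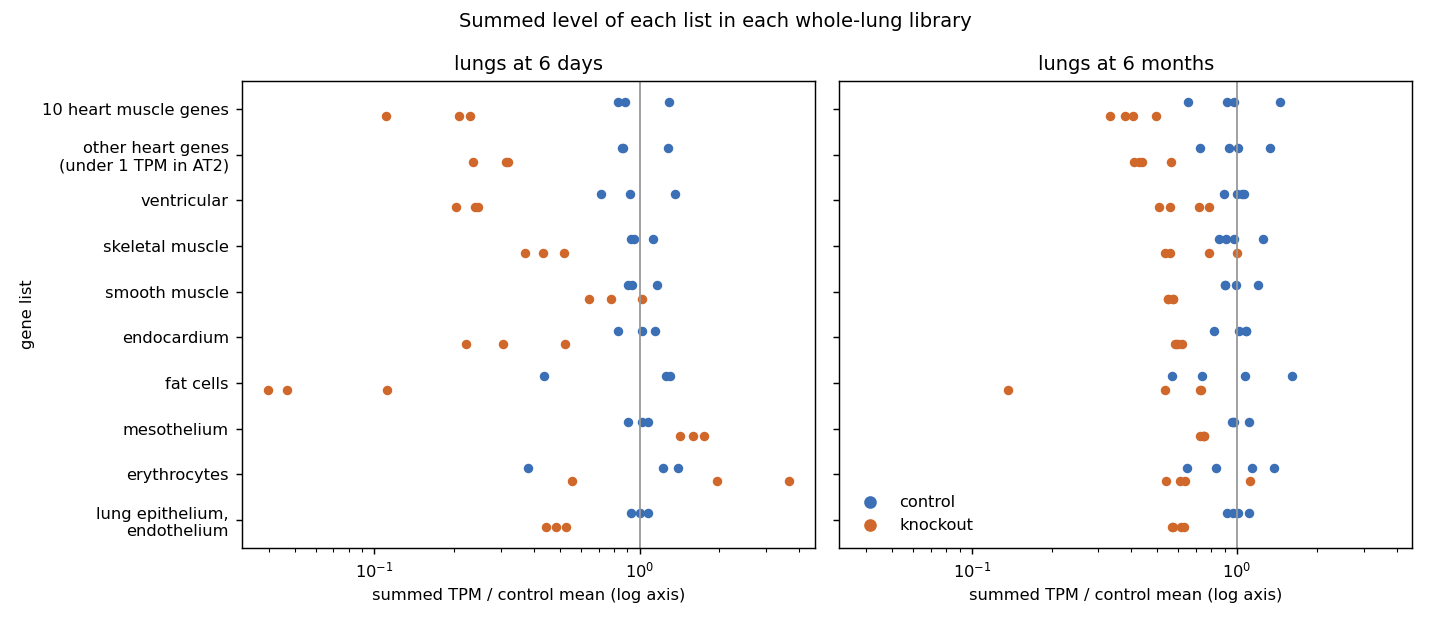
Summed TPM of each gene list in every whole-lung library divided by the control mean of that age (x axis, log scale), for controls and knockouts at 6 days and 6 months. The 10 heart muscle genes lie to the left in all knockouts, fat cell genes lie furthest left at 6 days, and mesothelial genes lie to the right at 6 days and to the left at 6 months.

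The light chains of atrial type stood above those of ventricular type. Myl2, the ventricular regulatory light chain, was listed at 0 in 12 of the 14 lungs and reached at most 0.349 TPM, and Irx4, a transcription factor of the ventricle, was listed at 0 in all 14. Myl3, the ventricular essential light chain that slow skeletal muscle also uses, was at 25.97, 10.5 and 12.6 TPM in the 6-day controls and at 1.35, 0.592 and 2.78 TPM in the knockouts. It was at 3.61 to 5.77 TPM in controls and 1.61 to 3.25 TPM in knockouts at 6 months. Myh7, the beta myosin heavy chain, fell by 1.41 at 6 days (adjusted p = 0.0191, limma) and by 0.49 at 6 months (adjusted p = 0.00883), from 8.10 to 2.42 and from 4.26 to 2.76 TPM. Hey2, a Notch target of the ventricle and of vessels, was not called at either age. In the 6-day controls Myl7 stood 21.8 ± 5.65 times above Myl3 (SD, n = 3). Myh7 was also at 24.9 to 77.8 TPM in the sorted AT2 libraries; their part in its level in lung was not tested.

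Of 5 other atrial genes, 2 of 3 tested were lower at 6 days and 1 of 3 at 6 months. Of all genes tested, 3.79% and 13.9% were called lower at these ages. Kcnj3, a subunit of the atrial potassium channel that acetylcholine opens, was at 1.66 to 3.44 TPM in the 6-day controls and at 0.0607 to 0.219 TPM in the knockouts. It fell by 1.67 on the log2 scale. Because Kcnj3 reached the filter at 6 days through the controls alone, its call there is not read as a test and no p-value is given. At 6 months Kcnj3 fell by 0.85 (adjusted p = 0.00788, limma). Kcna5, an atrial potassium channel, stayed under the filter, and Bmp10, a growth factor of the right atrium, was at most 0.165 TPM. Stard10 fell by 0.68 at 6 days, from 71.9 to 44.5 TPM with no overlap, and Dkk3 had a log2 difference of −0.61 and was not called; neither was called at 6 months.

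**Figure D4:**
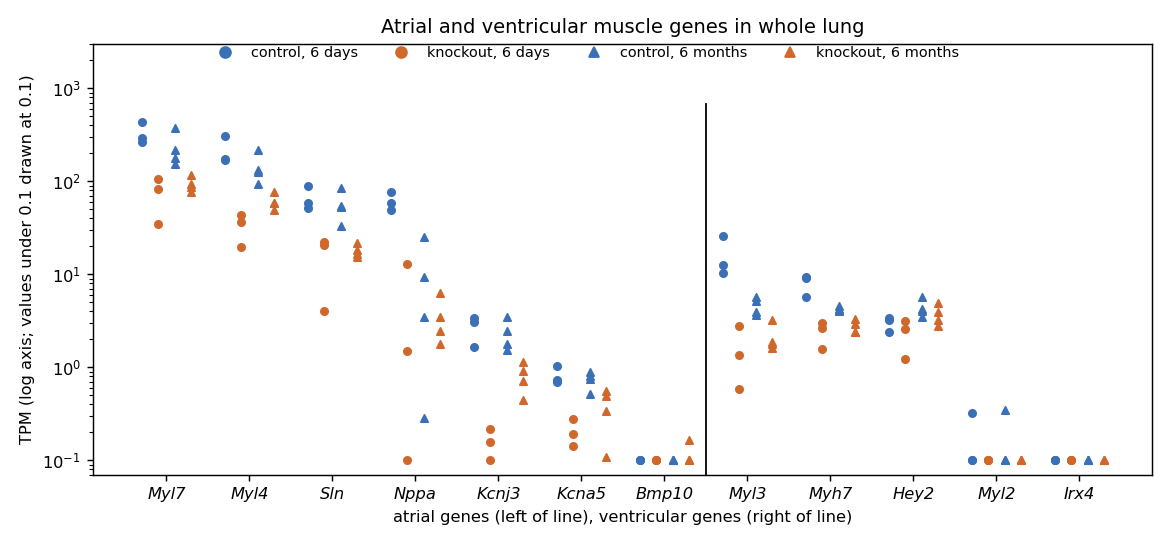
TPM (y axis, log scale, values under 0.1 drawn at 0.1) of 7 atrial and 5 ventricular genes in each whole-lung library, controls and knockouts at 6 days (circles) and 6 months (triangles). Myl7, Myl4 and Sln lie above 30 TPM in all controls, while Myl2 and Irx4 lie at or near the floor.

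The rest of the contractile machinery was read from 3 lists of 58 other heart genes. At 6 days 34 of 50 tested were lower and 0 higher, with a median log2 difference of −1.30, and at 6 months 35 of 44 tested were lower and 1 higher, with a median of −0.78. The count of 34 became 8 without control 1, 18 without control 3 and 22 without knockout 2. Of all genes tested, 3.79% were called lower and 3.16% higher at 6 days, and 13.9% lower and 15.9% higher at 6 months. These shares also stand beside the counts of the 3 lists described next. Of the 37 that stayed under 1 TPM in every AT2 library, 25 of 29 tested were lower at 6 days and 21 of 23 at 6 months. No share is given over all genes that low in AT2 cells, so nothing is read from the counts of these 37.

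Among sarcomere and Z disc genes, 16 of 22 tested were lower at 6 days and 14 of 17 at 6 months. On the log2(TPM + 1) scale the largest differences at 6 days were in Myoz2, a Z disc protein (24.6 ± 5.73 to 3.23 ± 2.38 TPM), Actn2, the alpha-actinin of the Z disc (16.8 ± 3.99 to 2.12 ± 1.00 TPM), and Csrp3, a LIM protein of heart muscle (50.8 ± 18.9 to 9.60 ± 6.19 TPM; SD, n = 3 each). By the ratio of mean TPM, low genes of the list stood further apart, such as Xirp2 (16.8-fold, from a control mean of 1.07 TPM). Des, the intermediate filament desmin, was at 114 ± 18.6 and 73.4 ± 23.1 TPM (SD, n = 3 each) and was not called at 6 days, with a log2 difference of −0.67, and fell by 0.67 at 6 months. Nebl and Pdlim5 were likewise called at 6 months and not at 6 days.

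For calcium and ion channel genes, 9 of 15 tested were lower at 6 days and 10 of 14 at 6 months. Casq2, which stores calcium in the sarcoplasmic reticulum, was at 14.3 ± 3.53 and 1.86 ± 0.967 TPM at 6 days, and Pln, phospholamban, which restrains the calcium pump, at 17.5 ± 2.22 and 2.65 ± 1.53 TPM (SD, n = 3 each). The pump itself, Atp2a2, which most cells express, was at 265 ± 15.9 and 125.5 ± 29.5 TPM. The gap junction gene Gja1 went the other way, with a log2 difference of 0.61 at 6 days, where it was not called, and a rise of 0.64 at 6 months.

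Muscle energy genes were lower in 9 of 13 at 6 days and in 11 of 13 at 6 months. Mb, myoglobin, which stores oxygen, was at 90.0 ± 23.9 TPM in the 6-day controls and at 7.72 ± 5.36 TPM in the knockouts, and Ckm, muscle creatine kinase, at 27.6 ± 9.5 and 1.88 ± 1.22 TPM. Slc25a4, a mitochondrial ADP and ATP carrier of many cell types, was at 279 ± 14.9 and 258 ± 19.6 TPM and was not called (SD, n = 3 each).

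Of 15 heart transcription factors, 8 were tested at 6 days and 1 was lower: Tbx20, a heart T-box factor, at 1.73 ± 0.295 and 0.316 ± 0.0899 TPM (SD, n = 3 each). Tbx20 reached the filter there through the controls alone, so nothing is read from its call. Of all genes tested, 3.79% were called lower and 3.16% higher at 6 days, and 13.9% lower and 15.9% higher at 6 months. At 6 months 4 of 7 tested were lower (Tbx3, Gata4, Myocd and Mef2a), by 0.93, 0.63, 0.57 and 0.27. Nkx2-5, a heart homeobox factor named here after its values were seen, was under the filter, at 0.122 to 1.35 TPM in the 6-day controls and listed at 0 in all 3 knockouts. Of 8 genes around the peptide Nppa, 2 of 6 tested were lower at 6 days (Npr3 and Mme), and 3 of 6 were lower (Npr3, Npr1 and Npr2) and 1 higher (Furin, a protease, log2 difference 0.41) at 6 months. Its clearance receptor Npr3, which endocardium also expresses, was at 74.8 TPM in the 6-day controls and 16.4 TPM in the knockouts (log2 difference −2.26, adjusted p = 0.0192, limma) and fell by 1.37 at 6 months (adjusted p = 0.000637). The signalling receptor Npr1, abundant in lung vessels, had a log2 difference of −1.05 at 6 days (adjusted p = 0.0669, limma) and fell by 0.30 at 6 months.

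By Pearson's r, the 12 genes whose log2 level over the 14 lungs was most like the mean of the 10 were Actn2 (r = 0.987), Casq2 (0.987), Mybphl (0.978), Ckm (0.977), Srl (0.974), Fndc5 (0.971), Cox8b (0.97), Tnnc1 (0.968), Myoz2 (0.967), Ckmt2 (0.966), Csrp3 (0.964) and Xirp2 (0.964). These are descriptions over 14 libraries that share their genotype groups, so a gene that differs between the groups scores high. With the group means removed, r was 0.96 for Actn2, 0.918 for Casq2, 0.907 for Tnnc1 and 0.711 to 0.885 for the other 9. Of the 12, 10 were on the lists of heart genes, and 66 of 14672 genes compared had r of at least 0.9. The lists were drawn up with earlier results of these data known, so nothing is read from that count. Mybphl, a myosin-binding protein expressed in atria, and Fndc5 were on none of the lists.

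Outside the whole lung the genes were at low levels. In sorted AT2 cells, which were not part of the choice of the genes, none of the 10 reached the filter of 1 TPM in 3 libraries: 5 of 60 values were at least 1 TPM, the highest was 2.59 TPM (Myl7, knockout 2), and Nppa was listed at 0 in all 6 libraries. Actc1 was at 0.381 to 0.970 TPM in AT2 controls and at 0.195 to 1.74 TPM in knockouts, and Myh6 stayed between 0.104 and 0.318 TPM. In a whole lung, where AT2 cells give part of the RNA, the same 2 genes were at 151 TPM or more and at 57.2 TPM or more in every control.

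In organoids, 3 of the 10 passed the filter, and none of the 3 was called by limma, where 0.387% of 12406 genes tested were called lower. At an unadjusted p under 0.05, 2 of the 3 passed (Tnni3 and Myl4), as did 4527 of the 12406 genes tested. Tnni3 was at 6.88 and 5.72 TPM in the controls and at 1.02 and 1.31 TPM in the knockouts, a log2 difference of −1.75 ± 0.18 (SE, adjusted p = 0.0528, limma). That p ranged from 0.0033 to 0.453 over the alternatives, and Tnni3 was called without the variance trend (0.0405), with library weights (0.0367), with the replicate block (0.044) and without control 1 (0.0033) or control 2 (0.00665). Tnni3 overlaps Dnaaf3, a gene for the assembly of ciliary dynein, by 1297 bases on the same strand. Dnaaf3 was at 7.97 and 5.28 TPM in the organoid controls and 1.80 and 1.85 TPM in the knockouts, and Foxj1, the factor of ciliated cells, both named after their values were seen, at 13.5 and 27.7 against 3.84 and 2.30 TPM; their part in the Tnni3 value was not tested. Myl4 had a log2 difference of −0.91 ± 0.33 (adjusted p = 0.129, limma), which ran from −1.30 to −0.52 with 1 library left out. Myl7 had one of −0.52 ± 0.59 (adjusted p = 0.549, limma), which was 0.01 without control 2 and 0.11 without knockout 2. Actc1, Sln and Nppa were listed at 0 in all 4 organoid libraries.

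**Figure D5:**
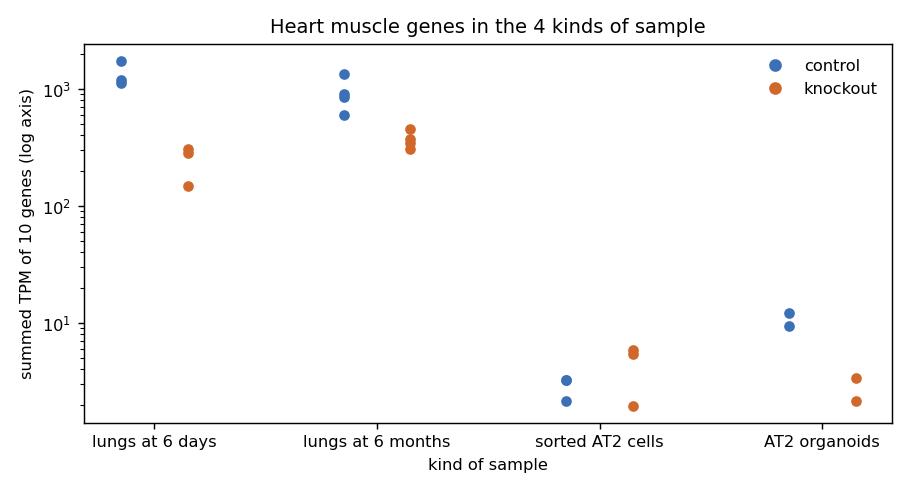
Summed TPM of the 10 heart muscle genes (y axis, log scale) in each library of the 4 kinds of sample, controls and knockouts. The lowest of the 14 lungs is at 148.8 TPM, and the highest AT2 or organoid library is at 12.05 TPM.

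Several of the genes have close relatives or overlapping neighbours, so reads could have been shared between them. The coding sequence of Myh6 is 91.5% identical to that of Myh7, which lies 3756 bases away, and Actc1 is 86.3% identical to skeletal Acta1 and 82.6% to Acta2. Acta1 stayed below 1 TPM in every lung, while Acta2 was at 108.0 to 324 TPM. Myl4 is 73.2% identical to Myl3, and Myl7 57.4% to Myl2. Actc1 lies opposite A530058N18Rik over 6267 bases, Myl4 opposite Gm11665 over 989 bases and Nppa opposite Gm13054 over 989 bases. These are overlaps of whole gene spans, introns included, and Gm13054 has no TPM values. The libraries did not keep the strand, so reads from bases in the transcripts of both genes cannot be told apart by strand. In the GENCODE M21 annotation of GRCm38, Myh6 is at chr14:54941921-54966927, Myl7 at chr11:5896637-5898782, Actc1 at chr2:114047282-114053548 and Nppa at chr4:148000722-148002079.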

How the data were processed

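Poly(A) RNA of 24 libraries was sequenced from TruSeq libraries that do not keep the strand, per the labels' protocols. The authors deposited TPM per gene symbol in 4 tables, one for each kind of sample; GRCm38 is named in the submitters' processing notes, and the aligner, quantifier and gene models could not be learned from the labels or headers. TPM keep no read counts, so depth and counting error are unknown. Groups came from the sample titles. Each of the 4 tables was fitted apart. Within each, the genotype effect on log2(TPM + 1) was estimated by limma (version 3.58.1, R version 4.3.3) with a variance trend. Genes were fitted that reached 1 TPM in a number of libraries no lower than the smaller group's size. The p-values were adjusted by Benjamini-Hochberg over those genes (threshold 0.05). For the correlations over all whole lungs, both lung tables were used together. The fitting step was checked on simulated data. Where a symbol was repeated, the row with the highest mean TPM was kept and the others were left out. The genes and gene lists were chosen with earlier results of these data known. All 10 genes, every other atrial and ventricular gene and the 12 most alike genes are named. From each other list, names were taken among the 5 genes with the highest mean TPM in lung and the 4 with the largest difference on the log2 scale among those called, and not all of these are named; Acta1 is named for its sequence, and others are said to be named after their values were seen. The settings varied one at a time were the pseudocount (0.1), the filter (none, or 5 TPM), the scaling (median-ratio, quantile), the variance trend (none), library weights, a replicate block and the leaving out of each library.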

Additional observations from a re-analysis of the deposited data

Results flagged for a closer look

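Myh6 in whole lung at 6 months was 43.1 TPM in knockout 1, against 24.6, 27.6 and 26.1 TPM in the other 3 knockouts; its gap to the nearest value was 0.834 of the range of the group, above the critical value of Dixon's test for 4 samples, 0.829. Of 22 groups looked at, this was the 1 that passed, and chance flags about 1 in 20 such groups.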

How the results depend on the processing

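Over all genes, 983 were called in lungs at 6 days; the count was 1801 with median-ratio scaling, 1886 with quantile scaling, 8395 with library weights, and 92 (without control 1) to 2049 (without knockout 3) when 1 library was left out. In AT2 cells 950 became 370 with no filter, 623 with median-ratio and 613 with quantile scaling, and 187 to 1214 with 1 library left out. In organoids 75 became 0 with no filter, 47 with quantile scaling, 183 without the variance trend, 659 with library weights, and 0 to 6967 with 1 library left out. The 4226 calls at 6 months stayed within 1.5 times under every alternative run, but 57.5% of calls were lower under quantile scaling against 46.5%. In AT2 cells that share went from 15.6% to 32.7% and 34.9% under median-ratio and quantile scaling, and in organoids from 64% to 53.2% under quantile scaling. With a pseudocount of 0.1 the log2 difference of Ldb3 at 6 days was −2.72, and that of Hrc was −3.58 at 6 days and −1.72 at 6 months; median-ratio scaling, quantile scaling and leaving out 1 library moved none of the 10 differences by more than the spread between replicates. With library weights the 10 lay between −4.65 and −1.48 at 6 days and between −1.55 and −0.75 at 6 months. The causes were not tested. Depth is unknown, and values under 1 TPM are the least certain.

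Samples with the same replicate number share only a number: the correlations of their deviations ran from −0.154 to 0.00534 at 6 days, 0.0803 to 0.217 at 6 months, −0.173 to 0.172 in AT2 cells and were −0.0737 in organoids. With the replicate block, the calls were 699, 4454, 778 and 399. Of 14154 genes tested at 6 days 344 were lower, and of 14177 at 6 months 2078 were lower. Among these were 10 and 9 of the 10 heart muscle genes. They were chosen from this contrast, so the counts are no test of them. At 6 months every control correlated best with the knockout of its own number, a hint from the data and not from the design.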

Other observations

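Myh7, the neighbour of Myh6, stood at higher levels than Myh6 in AT2 cells and organoids. In sorted AT2 cells Myh7 was at 77.8, 69.6 and 51.2 TPM in the controls and 49.9, 44.6 and 24.9 TPM in the knockouts (log2 difference −0.76, adjusted p = 0.107, limma), while Myh6 was at most 0.318 TPM. In organoids Myh7 was at 28.5 and 5.63 TPM in the controls and 55.7 and 64.9 TPM in the knockouts (log2 difference 2.13, adjusted p = 0.124, limma). The groups of organoids did not overlap, and those of AT2 cells did not overlap either.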
